A study of Mus musculus with 15 samples.

Results

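Guanylate-binding proteins (GBPs) are large GTPases of the dynamin superfamily whose genes are among the most strongly interferon-induced genes of vertebrate cells. They bind and hydrolyse GTP, assemble on the membranes of vacuoles that hold intracellular bacteria and parasites, and help to open these membranes and to start inflammasome signalling. Interferons, which drive these genes through STAT and IRF factors, are also known in mice to restrain group 2 innate lymphoid cells (ILC2s), the tissue-resident lymphocytes that make IL-5 and IL-13 in the lung. The mouse GBP genes stand in 2 clusters, on chromosomes 3 and 5. Expression of 8 of them, Gbp2b, Gbp3, Gbp5 and Gbp7 of chromosome 3 and Gbp4, Gbp8, Gbp9 and Gbp10 of chromosome 5, is described here among 16257 genes tested in lung ILC2s. They were selected on their symbols, as the array features that carry exactly 1 of them, and a gene with several features was to be represented by its brightest on average. Each of the 8 genes had 1 feature, so that this measured mean decided nothing. The family itself was chosen with earlier results of these data known.

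Total RNA of mouse lung ILC2s was measured on 15 Affymetrix arrays, in 5 groups of 3 biological replicates as the labels call them. Neonatal cells came from lungs of naive mice 10 days old, with no sex given in the sample labels, although the study's design names both sexes. Effector cells came from adult females or adult males dosed with IL-33, a cytokine of the lung epithelium that stimulates ILC2s. It was given intranasally on 3 days in a row, with cells isolated 1 day after the final dose. Naive adult cells came from females or males 8 weeks old. No strain, transgene or mutant allele, number of mice per array, age of the effector adults or sorting scheme is given in the sources used here, and no group received the dosing procedure alone according to the labels, so that dosing itself cannot be told apart from IL-33.

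As a background served 1400 features of olfactory and vomeronasal receptor genes, which lymphocytes do not use. A level up to the 95th percentile of these features is called here the background range. It reached 4.88 in neonates, 4.63 in effector adults and 5.46 in naive adults on the log2 scale, so the background was higher on naive arrays. All 11 defining ILC2 markers examined, among them Gata3, Il7r, Rora and Arg1, stood above the background range in each condition, with list means per array of 9.30 to 9.68 in neonates, 9.36 to 9.74 in effector adults and 8.88 to 9.30 in naive adults. Within a group, pairs of arrays correlated at 0.904 to 0.925 in neonates, 0.962 to 0.974 in effector groups and 0.911 to 0.960 in naive groups. Of the 10 macrophage and monocyte markers, which belong to cells rich in GBPs, only Cd68 stood above the background range, in all 3 conditions, and the mean level of this list per array was 4.04 to 4.57 in neonates, 4.06 to 4.20 in effector adults and 4.12 to 4.63 in naive adults. Cd68 itself was higher in effector than in naive adults, by 0.63 (limma adjusted p = 0.0110). Of 7 endothelial markers only Pecam1 stood above it in each condition, with list means of 4.56 to 4.88 in neonates, 4.26 to 4.66 in effector adults and 4.44 to 5.25 in naive adults. Of 8 T cell markers, 4 stood above it in neonates (Cd28, Cd3d, Cd3e and Cd3g), 4 in effector adults and 2 in naive adults, with list means of 5.53 to 5.77 in neonates, 4.999 to 5.21 in effector adults and 5.26 to 5.50 in naive adults. These counts, here and below, also follow the background range, which was highest in naive adults. Cd3d averaged 4.64 in effector adults and 4.88 in naive adults, and only the first was above it. Cd3g was lower in effector than in naive adults by -0.58 ± 0.14 (limma adjusted p = 0.00396). Cd3e was higher in neonates, by 1.21 ± 0.25 relative to naive and 1.40 ± 0.25 relative to effector adults (limma adjusted p = 0.00587 and 0.00121), and none of the 8 was called lower there. Of 4 epithelial markers Sftpc, Cdh1 and Krt8 stood above the background range in each condition, with list means of 5.62 to 6.20 in neonates, 4.95 to 5.43 in effector adults and 5.14 to 5.90 in naive adults. Markers of dendritic cells, B cells and NK cells or ILC1s were in part above the background range in effector adults and in neonates, and none of them was in naive adults. Of 5 dendritic cell markers these were Siglech and Ccr7, in both conditions, with list means of 4.51 to 4.82 in neonates, 4.74 to 4.97 in effector adults and 4.54 to 5.03 in naive adults. Ccr7 was higher in effector than in naive adults by 1.47 ± 0.22 and lower in neonates than in effector adults by -1.23 ± 0.27 (limma adjusted p = 1.2e-04 and 0.00538). Of 4 B cell markers it was Cd79b, in both conditions, which was higher in effector than in naive adults by 1.00 ± 0.24 (limma adjusted p = 0.00417), with list means of 4.23 to 4.70 in neonates, 4.23 to 4.36 in effector adults and 4.01 to 4.61 in naive adults. Of 6 NK cell and ILC1 markers Tbx21 and Prf1 stood above it in neonates and Gzmb, Tbx21 and Prf1 in effector adults, with list means of 4.07 to 4.40 in neonates, 4.09 to 4.44 in effector adults and 4.07 to 4.61 in naive adults. Gzmb was higher in effector than in naive adults by 1.01 ± 0.33 (limma adjusted p = 0.0281). Of 4 fibroblast markers Col1a1 stood above it in neonates and in effector adults, and of 4 neutrophil markers none did in any condition. Fibroblast list means were 4.33 to 4.57 in neonates, 3.88 to 4.05 in effector adults and 3.84 to 4.23 in naive adults. In effector relative to naive adults 1 of 7 tested macrophage and monocyte markers was called higher and 2 lower. Among dendritic cell markers 1 of 5 rose and 1 fell, and among NK cell and ILC1 markers 1 of 4 rose and 1 fell. Of B cell markers 1 of 2 rose. None rose in the T cell, endothelial and neutrophil lists, where 2 of 8, 3 of 6 and 1 of 2 fell. Over all 16257 genes 3855 rose and 1773 fell. In neonates relative to effector adults 3 of 8 tested T cell, 2 of 2 fibroblast and 1 of 4 epithelial markers were called higher. So were 1 of 7 macrophage and monocyte, 1 of 6 endothelial and 1 of 2 B cell markers. None of these lists had a marker called lower, while 1 of 5 dendritic cell markers was. No neutrophil, NK cell or ILC1 marker was called there. Over all genes 964 were called higher in that comparison and 2382 lower. The part of all these cells in the differences below was not tested. In bulk RNA, fewer cells of a type cannot be told apart from less RNA per cell.

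The transcript starts of the chromosome 3 genes are shown first, because these genes lie side by side and yet differed in how they moved. Along the chromosome the order is Gbp5, Gbp7, Gbp3, Gbp2b and Gbp2, with no other protein-coding gene between them in RefSeq, and on chromosome 5 it is Gbp8, Gbp9, Gbp4, Gbp10 and Gbp6. RefSeq promoter windows (build GRCm38.p6, 250 bases before to 50 after a start) were matched for 4 of the 8 genes, namely Gbp2b, Gbp3, Gbp5 and Gbp7, and not for Gbp4, Gbp8, Gbp9 and Gbp10. The bases before the gene's first annotated start are printed on the plus strand, with matches to 3 motifs in capitals. The stretches are chr3:142496684-142496933 for Gbp5, chr3:142530086-142530335 for Gbp7, chr3:142559794-142560015 for Gbp3 and chr3:142594597-142594815 for Gbp2b.
Gbp5: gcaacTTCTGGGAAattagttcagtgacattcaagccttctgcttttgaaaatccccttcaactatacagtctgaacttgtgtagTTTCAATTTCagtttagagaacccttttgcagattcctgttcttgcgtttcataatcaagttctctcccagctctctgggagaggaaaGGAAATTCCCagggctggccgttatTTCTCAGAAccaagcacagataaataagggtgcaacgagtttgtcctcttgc
Gbp7: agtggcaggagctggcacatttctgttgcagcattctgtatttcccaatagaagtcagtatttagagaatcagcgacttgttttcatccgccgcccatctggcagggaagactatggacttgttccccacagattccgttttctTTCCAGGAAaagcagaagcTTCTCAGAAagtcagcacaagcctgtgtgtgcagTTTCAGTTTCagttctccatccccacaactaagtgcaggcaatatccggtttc
Gbp3: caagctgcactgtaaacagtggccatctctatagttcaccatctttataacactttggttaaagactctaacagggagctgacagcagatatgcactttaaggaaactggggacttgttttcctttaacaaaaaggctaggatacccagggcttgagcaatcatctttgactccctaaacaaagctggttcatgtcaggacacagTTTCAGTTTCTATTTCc
Gbp2b: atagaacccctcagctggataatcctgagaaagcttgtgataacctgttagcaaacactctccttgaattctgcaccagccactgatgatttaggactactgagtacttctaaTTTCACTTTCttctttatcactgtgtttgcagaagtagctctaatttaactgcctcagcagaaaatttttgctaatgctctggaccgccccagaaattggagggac

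The motifs, searched on both strands, were the interferon-stimulated response element (ISRE, GAAA and GAAA parted by any 2 bases), the interferon-gamma activated site (GAS, TTC and GAA parted by any 3 bases), and an NF-kappaB motif (kappaB, GGGA and TTCC parted by any 2 bases). NF-kappaB is a factor downstream of the IL-33 receptor. An ISRE match was present in 4 of the 5 promoter windows of these genes, against 3.44% of all 32851 RefSeq promoter windows of the same length. Distances are counted from the start each window was built on, while for Gbp3 and Gbp2b the printed stretch ends earlier, at the gene's first annotated start. The match began 165 bases before the start in Gbp5, 53 before it in Gbp7 and 137 before it in Gbp2b, and Gbp3 held overlapping matches that began 45 and 39 bases before its start. The further Gbp3 window, at a later start, held none. A GAS match, present in 8.30% of all windows, was found in Gbp5 (245 and 52 bases before the start) and in Gbp7 (106 and 87 bases before it). The kappaB letters, present in 1.47% of all windows, occurred in Gbp5 alone among the 5, 77 bases before the start. The window of Gbp2, the next gene of the cluster, also held a kappaB match, after its annotated start, and an ISRE match that began 59 bases before its start. The motifs were chosen after the levels of these genes had been seen, and a match is a description of letters, not of binding.

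**Figure D1:**
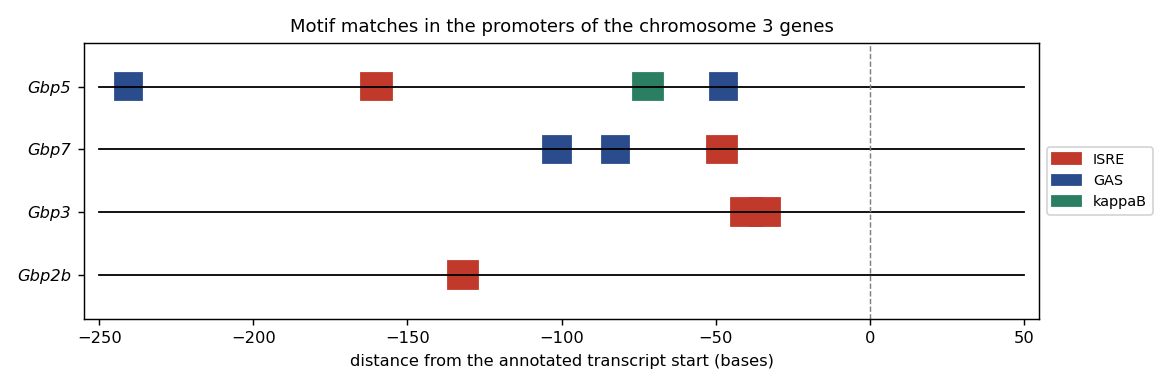
Matches to the ISRE, GAS and kappaB motifs (coloured boxes) in the windows of 4 GBP genes, plotted by distance in bases from the annotated start (dashed line). Each of the 4 windows drawn holds an ISRE match, from 165 bases before the start in Gbp5 to 39 before it in Gbp3, and only that of Gbp5 holds all 3 motifs.

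In effector adult ILC2s 3 of the 8 GBP genes were higher than in naive adult ILC2s, Gbp3 by 4.30-fold, Gbp5 by 2.46-fold and Gbp9 by 1.85-fold in array signal, and none was lower. The comparison asks how GBP transcripts differ between adults given IL-33 and naive adults. Over all genes 34.6% were called in this comparison, 23.7% as higher, at an adjusted p under 0.05 in limma, so 3 of 8 called higher is near that background. Of the called genes 68.5% were higher, and 83.0% with every array's median set to the same value (called centring below), which moved the median difference of all genes by 0.14. The median difference was 0.26 on the log2 scale over the 8 genes and 0.03 over all tested genes.

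Gbp3 encodes a GBP that in mice is recruited to the vacuole of Toxoplasma. It stood at 7.45, 7.80 and 6.86 on the effector female arrays and at 7.08, 7.06 and 7.40 on the effector male arrays, against 4.85, 4.60 and 5.57 on naive female and 5.95, 4.15 and 5.91 on naive male arrays (log2 levels, here and below). Every effector array lay above every naive array. The difference was 2.10 ± 0.36 (SE, limma, n = 6 effector and 6 naive arrays; adjusted p = 3.9e-04). Larger differences were found for few genes, since that of Gbp3 stood at percentile 98.5 of all tested genes.

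Gbp5, which promotes NLRP3 inflammasome assembly in mouse macrophages, stood at 6.85, 6.74 and 6.43 in effector females and 6.56, 6.21 and 6.71 in effector males, against 5.12, 5.63 and 3.60 in naive females and 6.15, 5.79 and 5.42 in naive males. The highest naive array, from a male, lay just under the lowest effector array, also from a male. The difference was 1.30 ± 0.30 (SE, n = 6 and 6, limma adjusted p = 0.00401). The mean levels of Gbp3 and Gbp5 in naive adults, 5.17 and 5.29, lay in the background range, so the exact size of the change in the transcript is not known.

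Gbp9, another GBP found at the Toxoplasma vacuole in mice, stood at 6.80, 6.33 and 6.90 in effector females and 6.83, 7.03 and 6.47 in effector males, against 5.91, 6.06 and 5.60 in naive females and 6.28, 5.56 and 5.63 in naive males. The groups again did not overlap, which 15.2% of all genes showed in this direction. Its difference of 0.89 ± 0.27 (SE, n = 6 and 6) passed with an adjusted p of 0.0191 in limma. The call ended after a further quantile normalization, at 0.77 with an adjusted p of 0.0562, and with the 3 least correlated arrays left out (naive male 1 and 2 and neonate 2), at 0.98 with an adjusted p of 0.0522.

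The other 5 genes did not pass. Gbp10 averaged 8.06 ± 0.30 in effector adults and 7.72 ± 0.23 in naive adults (SD, n = 6 each), a difference of 0.34 with a 95% interval of 0.04 to 0.65 and an adjusted p of 0.0721 in limma. It passed after centring, at 0.48 with an adjusted p of 0.0137, and also when naive male array 3 was left out, at 0.43, or effector female array 2, at 0.42 (limma adjusted p = 0.0256 and 0.0442). Gbp8 averaged 7.02 ± 0.22 in effector adults and 7.53 ± 0.57 in naive adults (SD, n = 6 each). Its difference of -0.52, with an interval of -1.03 to -0.01, did not pass (limma adjusted p = 0.11). It was -0.28 without naive female array 3 (adjusted p = 0.26), which stood at 8.67 with the next naive array at 7.54, and it passed after a further quantile normalization alone, at -0.72 with an adjusted p of 0.0476.

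Gbp4 and Gbp7 were well above the background range in both conditions. Gbp4 averaged 8.34 ± 0.15 in effector adults and 8.22 ± 0.48 in naive adults (SD, n = 6 each), with an interval of the difference of -0.28 to 0.51. Gbp7, which takes part in oxidative defence in mouse macrophages, averaged 7.80 ± 0.16 in effector adults and 7.62 ± 0.43 in naive adults (SD, n = 6 each), with an interval of -0.27 to 0.64. A further quantile normalization turned the sign of both, to -0.082 for Gbp4 and -0.023 for Gbp7. Gbp2b, known earlier as Gbp1, averaged 4.15 ± 0.27 in effector adults and 4.24 ± 0.35 in naive adults (SD, n = 6 each) and had its mean in the background range in all 5 groups. Its sign turned too, after centring and after quantile normalization, so no direction is given for it.

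**Figure D2:**
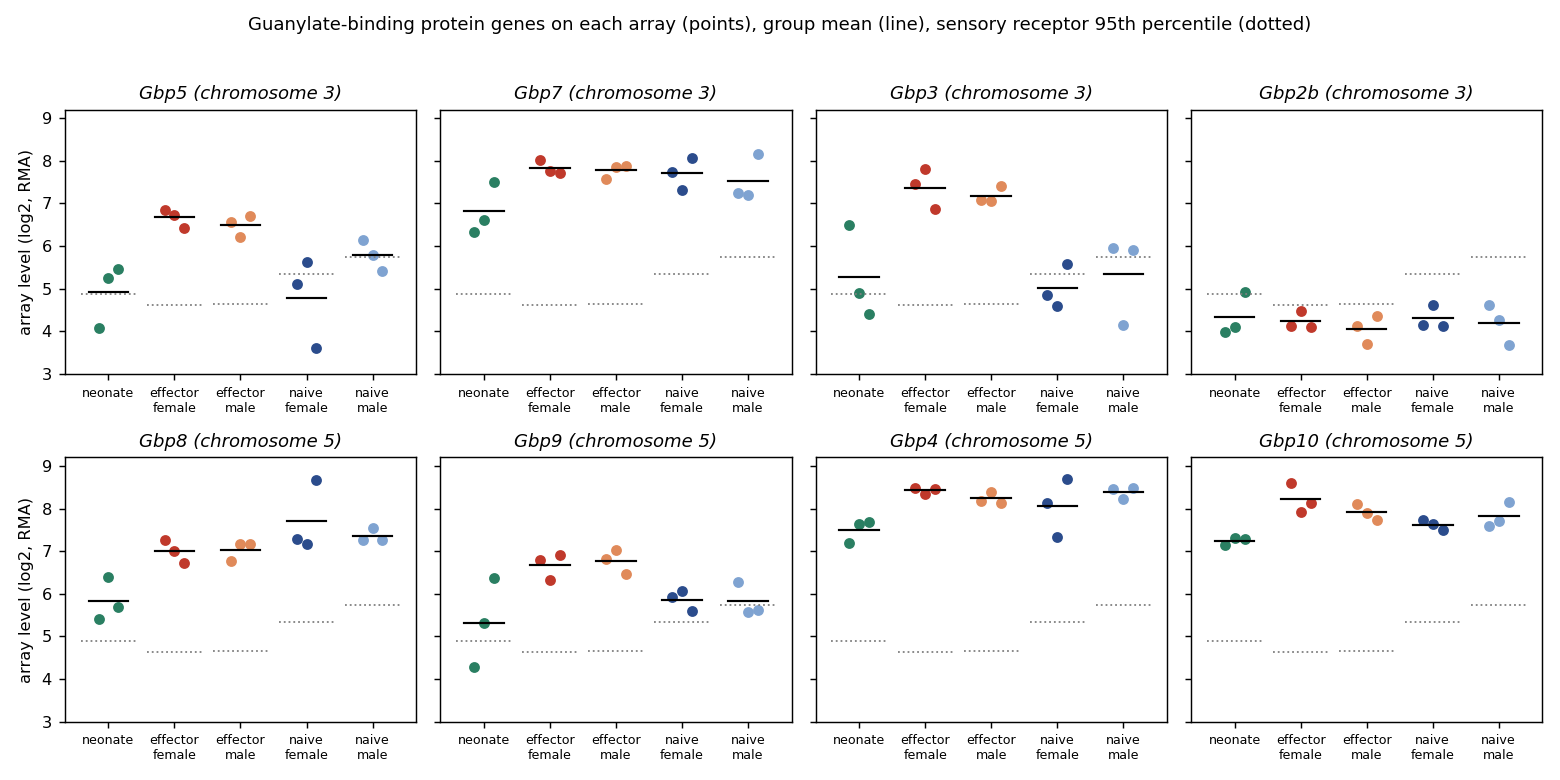
Log2 level of the 8 GBP genes on each of the 15 arrays (points) with the group mean (black line) and the 95th percentile of sensory receptor features in that group (dotted line), upper row for chromosome 3 and lower row for chromosome 5. Effector arrays of Gbp3, Gbp5 and Gbp9 lie above all naive arrays, neonatal arrays of Gbp8 lie below all adult arrays, and Gbp2b has its group means under the dotted line in all 5 groups.

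Gbp3 was higher in effector cells of both sexes and Gbp5 in those of females, and no GBP gene was shown to respond differently between them. The effector minus naive difference of Gbp3 was 2.37 ± 0.51 for females and 1.84 ± 0.51 for males (SE, 3 arrays in each group; limma adjusted p = 0.00594 and 0.0167). Gbp5 was higher by 1.89 ± 0.43 in females (adjusted p = 0.00832), and its male difference of 0.71 ± 0.43 did not pass (adjusted p = 0.26, limma). Gbp9 differed by 0.82 ± 0.38 in females and 0.95 ± 0.38 in males, and neither value passed with 3 arrays per group (limma adjusted p = 0.18 and 0.082). In females 2 of 8 genes were called, against 14.0% of all genes, and in males 1 of 8, against 24.9%.

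The call of Gbp3 in males rested on few arrays. Without naive male array 2, its lowest array at 4.15, the difference was 1.25 and no longer passed (adjusted p = 0.0827), without effector male array 3 it was 1.73 (adjusted p = 0.061), and without the 3 least correlated arrays it was 1.27 (adjusted p = 0.22). The female response minus the male response was 1.18 ± 0.61 for Gbp5, 0.52 ± 0.28 for Gbp10, 0.53 ± 0.73 for Gbp3 and -0.13 ± 0.54 for Gbp9 (SE, n = 3 arrays in each of 4 groups), with limma adjusted p values of 0.93 to 0.99. These values moved with single arrays, that of Gbp5 to 0.59 without naive female array 3 and that of Gbp10 to 0.32 without effector female array 1. That of Gbp3 lay between 0.22 without naive male array 1 and 1.12 without naive male array 2. This test called 0 of the 8 genes and 0.0% of all genes, with 0 of the 8 and 866 of all genes at an unadjusted p under 0.05.

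Between females and males 0 of the 8 genes passed in naive cells, where 0.209% of all genes did, and 0 in effector cells, where 0.0308% did. At an unadjusted p under 0.05 in limma there was 1 of the 8 in naive cells and 0 in effector cells. The 1 gene was Gbp5, at 4.78 ± 1.06 in naive females and 5.79 ± 0.37 in naive males (SD, n = 3 each), a difference of -1.004 with a limma adjusted p of 0.45. Naive female array 3 was the low one, at 3.60, and without it the difference was -0.41.

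Neonatal ILC2s had lower levels of 7 of the 8 GBP genes than effector adult ILC2s, by 1.76-fold for Gbp10 to 4.02-fold for Gbp3. The comparison sets naive cells of the developing lung against those of adults given IL-33, with the adult sexes weighted equally. The effector cytokine genes Il5 and Il13 were not at naive adult levels in neonates. Il5 averaged 8.95 in neonates and 8.46 in effector adults, and Il13 averaged 9.87 in neonates, 10.57 in effector adults and 7.50 in naive adults. Both were higher in neonates than in naive adults, by 1.95 ± 0.26 and 2.36 ± 0.17 (limma adjusted p = 2.6e-04 and 7.0e-07), and relative to effector adults Il13 was lower in neonates by -0.70 ± 0.17 and Il5 differed by 0.49 ± 0.26 (limma adjusted p = 0.0101 and 0.21). In the whole array 20.6% of genes were called in this comparison and 14.7% as lower, so 7 of 8 stood well above the background. The GBP genes were chosen with earlier results of these data known, so the count is no independent evidence. The median difference was -1.09 over the 8 genes and -0.03 over all genes on the log2 scale. Of the called genes 28.8% were higher, and 16.4% after centring, which moved the median of all genes by -0.11. Groups did not overlap for 6 of the 8 genes, which 16.2% of all genes showed in this direction.

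Gbp3 stood at 6.50, 4.91 and 4.40 in the 3 neonatal arrays, against 6.86 to 7.80 with a median of 7.24 in the 6 effector arrays. Its difference was -2.01 ± 0.44 (SE, n = 3 neonatal and 6 effector arrays; limma adjusted p = 0.00563). The neonatal arrays of this gene spread widely, and the highest of them, array 1, lay just under the lowest effector array. Gbp5 stood at 4.08, 5.25 and 5.46 in neonates, against 6.21 to 6.85 with a median of 6.64 in effector adults. It differed by -1.65 ± 0.37 (SE, n = 3 and 6; limma adjusted p = 0.00635).

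Gbp9 stood at 4.29, 5.31 and 6.36 in neonates, against 6.33 to 7.03 with a median of 6.81 in effector adults. Neonatal array 3 thus reached the lowest effector array. The difference was -1.41 ± 0.33 (SE, n = 3 and 6; limma adjusted p = 0.00797) and -0.89 without neonatal array 1.

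Gbp10 stood at 7.14, 7.32 and 7.29 in neonates, against 7.73 to 8.61 with a median of 8.02 in effector adults. This gene varied least between replicates of the 8, with a residual SD of 0.23 on the log2 scale. Its difference of -0.82 ± 0.17 was the smallest of the 7 and passed with an adjusted p of 0.00438 in limma (SE, n = 3 and 6). Gbp8 stood at 5.40, 6.41 and 5.68 in neonates, against 6.72 to 7.26 with a median of 7.09 in effector adults (difference -1.19 ± 0.29, limma adjusted p = 0.0107).

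Gbp4 stood at 7.18, 7.65 and 7.69 in neonates, against 8.13 to 8.49 with a median of 8.37 in effector adults (difference -0.83 ± 0.23, limma adjusted p = 0.0179). Gbp7 stood at 6.34, 6.62 and 7.50 in neonates, against 7.58 to 8.03 with a median of 7.81 in effector adults (difference -0.98 ± 0.26, limma adjusted p = 0.0165). No neonatal array of these genes reached an effector array. Some of these calls rested on single neonatal arrays. Without neonatal array 1, 4 of the 8 genes were called, and the adjusted p was 0.0887 for Gbp4, 0.0921 for Gbp7 and 0.06 for Gbp8. Without neonatal array 2 that of Gbp7 was 0.0768, and after quantile normalization that of Gbp4 was 0.0644.

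Against naive adults Gbp8 alone passed. It was lower in neonates by 3.26-fold, at 5.40, 6.41 and 5.68 in neonates against 7.17 to 8.67 with a median of 7.28 in the 6 naive arrays. The difference was -1.70 ± 0.29 (SE, n = 3 neonatal and 6 naive arrays; limma adjusted p = 0.00189). It stayed called at 2-fold and under all 19 other alternatives that were run, between -1.99 and -1.46. Only 0.474% of the tested genes had a lower difference. In this comparison 10.2% of all genes were called, 4.12% as lower, against 1 of 8 GBP genes.

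Most of the other GBP genes pointed the same way without passing. Gbp7 differed by -0.80 with a 95% interval of -1.36 to -0.24 (limma adjusted p = 0.0676), Gbp4 by -0.72 with -1.20 to -0.24 (adjusted p = 0.0562, limma) and Gbp10 by -0.47 with -0.84 to -0.10 (adjusted p = 0.10, limma). These sit near the threshold. Gbp4 was called after quantile normalization, with a filter at percentile 60, with a trended and robust prior and without naive female array 2, at -0.74, -0.72, -0.72 and -0.90. Gbp7 was called without neonatal array 3, at -1.14, and so was Gbp9, at -1.04 against -0.52 over all arrays. Without neonatal array 1 the difference of Gbp9 was -0.0045, so this value rests on single arrays.

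For Gbp10 the neonatal arrays, at 7.14 to 7.32, all lay below the naive arrays, at 7.49 to 8.17. Such separation downward was seen for 2 of the 8 genes, Gbp8 and Gbp10, and for 4.10% of all genes. Gbp3 and Gbp5, the genes with the largest effector difference, averaged 5.27 ± 1.10 and 4.93 ± 0.74 in neonates (SD, n = 3) against 5.17 ± 0.75 and 5.29 ± 0.90 in naive adults (SD, n = 6). The neonatal means stood just above the background range of neonates and the naive means within that of naive adults. Their intervals ran from -0.85 to 1.04 and from -1.15 to 0.44.

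The comparisons share arrays, the naive ones between the effector and neonatal differences and the neonatal ones between both neonatal differences, so their values are set side by side only. For Gbp3, Gbp5 and Gbp9 the effector mean was the highest of the 3 conditions and passed against both others, while neonates and naive adults did not differ beyond the test. For Gbp8 the order was naive adult, effector adult and neonate, from high to low. Its neonatal mean passed against both adult conditions, and the adult conditions did not differ beyond the test. For Gbp4, Gbp7 and Gbp10 the order of the means was effector adult, naive adult and neonate, and only the ends of that order differed beyond the test. The adult means of Gbp4 and Gbp7 changed places after a further quantile normalization, so their order is not settled.

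**Figure D3:**
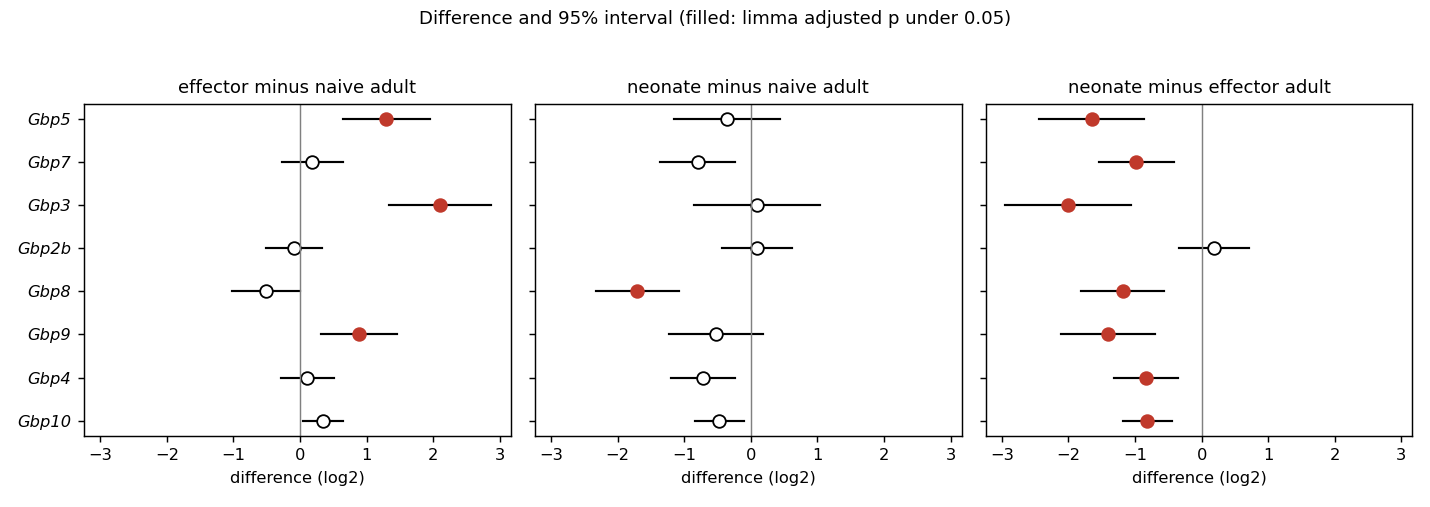
Log2 difference (point) and its 95% interval (line) for the 8 GBP genes in 3 comparisons, in chromosomal order, with filled points for an adjusted p under 0.05 in limma. Filled points number 3 in the effector comparison, 1 against naive adults in neonates and 7 against effector adults in neonates.

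The position of a gene in its cluster did not set apart those that moved in effector cells. On chromosome 3 Gbp5 and Gbp3 were called and Gbp7, which lies between them, was not, and on chromosome 5 Gbp9 was called while its neighbours Gbp8 and Gbp4 were not. Of the nearest protein-coding genes beside the clusters 10 were tested, 3 being looked up on each side. In effector relative to naive adults 4 of them rose and 2 fell, against 34.6% of all genes called. Kyat3, which follows the chromosome 3 cluster and encodes a kynurenine aminotransferase, rose by 0.91 ± 0.20, and Zfp951, a zinc finger gene before the chromosome 5 cluster, by 0.85 ± 0.23 (SE, n = 6 and 6; limma adjusted p = 0.00226 and 0.0100). Lrrc8b and Lrrc8c, subunits of volume-regulated anion channels that follow the chromosome 5 cluster, rose by 0.89 ± 0.12 and 0.99 ± 0.15 (limma adjusted p = 3.8e-05 and 1.5e-04). Pdlim5 and Unc5c, which precede the chromosome 3 cluster, fell by 0.59 ± 0.18 and 0.42 ± 0.14 (limma adjusted p = 0.0194 and 0.0280). Gtf2b, Pkn2, Gm20385 and Abcg3 did not pass. In neonates relative to effector adults 3 of the 10 were called, against 20.6% of all genes. Kyat3 and Zfp951 fell by 0.93 ± 0.24 and 1.00 ± 0.28 and Pdlim5 rose by 0.72 ± 0.22 (SE, n = 3 and 6; limma adjusted p = 0.0133, 0.0217 and 0.0309). In neonates relative to naive adults Lrrc8b alone of the 10 was called, higher by 0.95 ± 0.14 (limma adjusted p = 6.98e-04). Over all genes 10.2% were called in that comparison, so 1 of 10 is near that share.

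Replicates of several of these genes varied more than those of most genes. The residual SD of the fit was 0.75 for Gbp3, 0.62 for Gbp5, 0.54 for Gbp9 and 0.47 for Gbp8, which placed them at percentiles 98.5, 96.8, 94.4 and 90.1 of all tested genes. In naive female array 3 Gbp5 was the lowest of all 15 arrays, at 3.60, while Gbp8 and Gbp4 were the highest of all, at 8.67 and 8.70. In neonatal array 1 Gbp3 was the highest of its group, at 6.50, while each of the other 7 genes was at its lowest there among the neonatal arrays.

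Genes were also ranked by how closely their levels followed a GBP gene over the 15 arrays, as the root mean square difference of log2 levels after each gene's own mean was removed. Closest to Gbp3 were Prim1, a primase subunit, at 0.473, Nmrk1, a nicotinamide riboside kinase, at 0.484 and Adgrf5 at 0.512, while the SD of Gbp3 itself over the arrays was 1.19. Closest to Gbp5 were Foxk2 at 0.444, A4galt at 0.490 and Eif2ak2, the interferon-induced kinase PKR, at 0.492, against an SD of 0.926. Closest to Gbp8 was Zfp182, a zinc finger gene, at 0.280, against an SD of 0.741. Of the other GBP genes, the closest to Gbp5 was Gbp9 at 0.580 and the closest to Gbp4 was Gbp7 at 0.326. These are descriptions over arrays that share their groups.

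GBPs work with a second family of interferon-induced proteins, the immunity-related GTPases. The counts of called genes in this and the following lists stand beside the shares over all genes, of which 23.7% rose in effector relative to naive adults, 14.7% fell in neonates relative to effector adults and 4.12% fell in neonates relative to naive adults. Of 10 such genes listed, 6 were tested, and 4 of these rose and 1 fell in effector cells relative to naive cells, with a median of 0.86. Gm12250, the Irgb10 gene whose product acts on bacterial membranes after GBPs in mice, rose by 2.86 ± 0.18 (SE, n = 6 and 6; limma adjusted p = 1.6e-08), and its neonatal and naive means of 4.37 and 4.38 lay in the background range. Igtp rose by 2.00 ± 0.30 and Irgm1 by 1.05 ± 0.19. Gm4951 fell by 1.00 ± 0.27 within the background range in both conditions. In neonates relative to effector adults 5 of the 6 fell, among them Gm12250 by 2.86 ± 0.22. In neonates relative to naive adults Iigp1, which disrupts the Toxoplasma vacuole in mice, was the only one called, and it fell by 1.42 ± 0.23 (SE, n = 3 and 6; limma adjusted p = 0.00107), with both means, 3.86 and 5.28, in the background range.

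Most antiviral genes of the type I interferon response rose in effector cells. Of 20 tested, 17 rose in effector relative to naive adults, against 23.7% of all genes, and none fell, with a median of 1.38, and the same count was found without the 3 least correlated arrays. The naive mean of 11 of the 20 lay in the background range, 10 of these being among those that rose, so that the size of their change and of the median is not exact. Ifit2, Mx1 and Oas2 lay in it in effector adults too. Ifitm3, which blocks virus entry, rose by 2.60 ± 0.18, the nucleotide kinase gene Cmpk2 by 1.94 ± 0.23 and Bst2, which tethers virions, by 1.83 ± 0.26 (limma adjusted p = 5.5e-08, 1.3e-05 and 6.7e-05). Relative to effector adults 15 of the 20 were lower in neonates, and relative to naive adults only Ifitm3 was called, lower by -0.74 ± 0.23 (limma adjusted p = 0.0484). After centring, and also after quantile normalization, none of the 20 was called in neonates relative to naive adults. Interferon-response genes had been examined in these data before this list was made, so the count is no independent evidence.

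Among 16 tested genes of the interferon-gamma response and antigen processing 5 rose in effector cells and none fell, which is near the 23.7% of all genes that rose. Tap1, a peptide transporter subunit, rose by 1.24 ± 0.14 and the immunoproteasome gene Psmb9 by 1.23 ± 0.15 (limma adjusted p = 9.1e-06 and 1.7e-05). After centring 9 of the 16 rose. In neonates 6 were lower than in effector adults and 2 were lower than in naive adults, the immunoproteasome gene Psmb10 by -0.46 ± 0.13 and Ciita, the class II transactivator gene, by -0.53 ± 0.14 (limma adjusted p = 0.0315 and 0.0228). Only 1 of the 16 was lower in neonates than in naive adults after centring, and 2 were after quantile normalization.

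Of 13 tested receptors and signalling genes of the interferon pathways 7 rose in effector cells and none fell, and after quantile normalization 4 rose and 1 fell. The transcription factor genes Irf7, Irf8 and Irf9 rose by 1.38 ± 0.20, 1.19 ± 0.19 and 1.08 ± 0.16 (SE, n = 6 and 6; limma adjusted p = 9.7e-05, 2.0e-04 and 1.0e-04), and the naive mean of Irf8 lay in the background range. Irf1, which drives GBP genes, rose by 0.70 ± 0.15 (limma adjusted p = 0.00168). The receptor genes Ifngr1 and Ifnar2 differed by -0.12 ± 0.13 and -0.04 ± 0.13 and did not pass. In neonates relative to effector adults Irf7, Irf8, Irf9 and Stat2 were lower. Relative to naive adults Jak2 and Ifnar1 were higher in neonates, 2 of the 13, against 982 of all 16257 genes. Of 5 tested interferon genes none rose in effector cells, although 1 did after centring, and Ifna4 fell by 0.94 ± 0.26. Ifng averaged 4.48 in effector and 4.09 in naive adults, in the background range, and did not pass (limma adjusted p = 0.12).

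The feedback genes Usp18 and Socs3, which restrain interferon and cytokine receptor signalling, rose in effector cells by 2.16 ± 0.24 and 1.43 ± 0.17, 2 of 6 tested. Socs1 was lower in neonates, by -0.63 ± 0.16 relative to effector adults and -0.80 ± 0.16 relative to naive adults (limma adjusted p = 0.0135 and 0.00579), and 3 of the 6 were lower in the first of these comparisons. Among 6 tested inflammasome partners Nlrp3, Casp4 and Pycard rose in effector cells, by 1.43 ± 0.32, 1.29 ± 0.21 and 0.81 ± 0.11, and the naive mean of Nlrp3, 4.11, was within the background range. In neonates Casp1 and the DNA sensor gene Aim2 were lower than in naive adults by -2.10 ± 0.28 and -0.95 ± 0.17 and lower than in effector adults by -2.40 ± 0.28 and -0.93 ± 0.17 (limma adjusted p = 2.1e-04, 0.00218, 4.4e-05 and 0.00133). Nlrp3 and Pycard were higher in neonates than in naive adults, by 2.06 ± 0.40 and 0.67 ± 0.13. These were 2 of the 6 tested, against 982 of all 16257 genes called higher in that comparison.

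Genes whose products place GBPs on membranes were examined as well, with 23.7% of all genes higher in effector cells. Of 9 tested genes of Atg8 conjugation, which guides GBPs to vacuoles, Gabarapl1 alone rose in effector cells, by 2.05 ± 0.34. The prenylation pathway gives some GBPs a lipid anchor. Of 6 tested genes of its enzymes Icmt alone rose, by 0.49 ± 0.14, and the Icmt product acts after the lipid is attached. Icmt was not called after quantile normalization or without the 3 least correlated arrays, where 0 of the 6 were. Other dynamin-superfamily GTPases that are not interferon-induced rose for 4 of 7 genes, against 23.7% of all genes, the mitochondrial fusion genes Mfn1, Mfn2 and Opa1 and the fission gene Dnm1l, by 0.38 to 0.66. None of the 7 was called in neonates relative to effector adults.

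**Figure D4:**
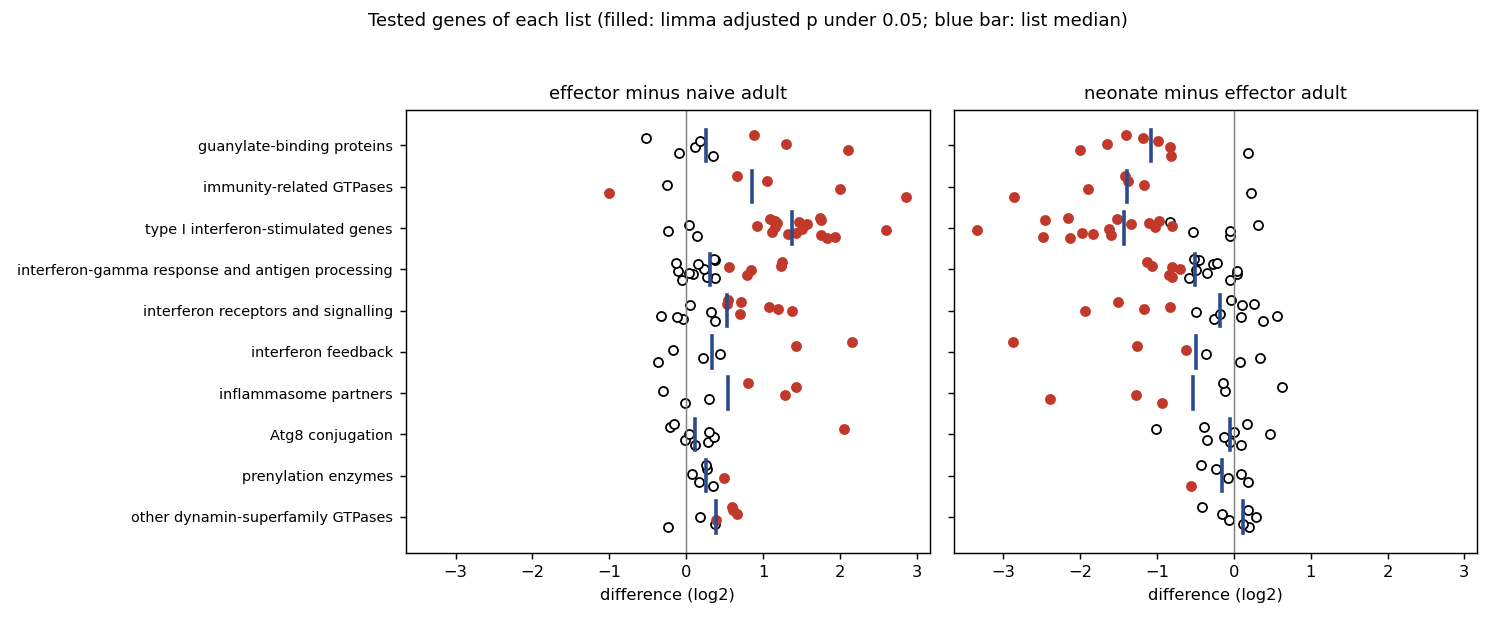
Log2 differences of the tested genes of each list (points, filled for an adjusted p under 0.05 in limma) with the list median (blue bar), for effector minus naive adults on the left and neonates minus effector adults on the right. The median of the 8 GBP genes lies at 0.26 on the left and -1.09 on the right, that of the 20 type I interferon-stimulated genes at 1.38 on the left and -1.43 on the right.

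Other GBP symbols could not be tested. Gbp6 and Gbp11 fell below the filter, with levels of 1.89 to 3.36 and 2.20 to 3.59 over all arrays, inside the background range. Gbp2 had no feature of its own and shares one with Gbp2b. GBP paralogues resemble each other in sequence, and whether a feature also records a paralogue was not tested, since probe sequences were not used here.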

How the data were processed

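Levels are on the log2 scale, used as the authors deposited them. Expression Console of Affymetrix and the RMA method are the tools named in the submitters' processing notes. RMA adjusts for background, quantile-normalizes the arrays and combines a feature's probes into 1 log2 level. The sources used here name no version or annotation. Precision is limited by the number of arrays, and the replicates are separate samples per the labels, with no statement of how many mice each holds.

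Of 41345 features, 28958 lay above percentile 40 of their array in at least 3 arrays. Of these, 17153 had 1 gene symbol and gave 16257 genes. A mean per group was fitted to the 15 arrays with limma 3.58.1 in R 4.3.3 (10 residual and 5.05 prior degrees of freedom), with 8 comparisons. Where a comparison pooled adults of both sexes, the sexes had equal weight. Two-sided tests were used, with Benjamini-Hochberg adjustment over all genes and calls at an adjusted p under 0.05. The pipeline was tested on simulated data. Standard errors come from this fit. SDs are those of the arrays named.

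The GBP genes and the gene lists were chosen with earlier results of these data known. Named genes are the 8 GBP genes, other Gbp symbols, up to 4 called genes per list with the largest effector difference and the 3 genes most like each GBP gene. Genes named for their neonatal values, those beside the clusters, Il5, Il13, single markers of other cell types, and Irf1, Ifngr1, Ifnar2, Ifng and Ifna4 were chosen after their values were seen.

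Alternatives were no filter, a filter at percentile 60, centring, quantile normalization, a trended and robust prior, array weights, a replicate block, only the arrays compared, the mean of a gene's features, a 2-fold threshold and leaving out each array. Leaving out the 3 arrays least correlated with the rest (naive male 1 and 2 and neonate 2) was chosen after seeing the data. It leaves 1 naive male array, which is assumed to vary like the other groups.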

Additional observations from a re-analysis of the deposited data

Results flagged for a closer look

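A feature annotated to both Gbp2 and Gbp2b stands outside the tests of single genes, because its signal cannot be assigned to one of them. Its log2 level was 7.71, 7.44 and 7.15 in effector females and 6.94, 6.63 and 7.07 in effector males, against 6.92, 6.84 and 6.47 in naive females and 6.28, 6.46 and 6.21 in naive males. Over all 28958 features past the filter it was higher in effector than in naive adults by 0.62 ± 0.16 (SE, n = 6 and 6; limma adjusted p = 0.0108), and lower in neonates than in effector adults by -0.93 ± 0.19 (n = 3 and 6; limma adjusted p = 0.00852).

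Gbp8 in naive female array 3 stood apart from the other naive arrays, at 8.67 with the next at 7.54. Gbp10 in naive male array 3 did so at 8.17 with the next at 7.73. In all, 16 sets of 6 arrays were examined in this way, and chance alone sets apart about 1 in 20.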

How the results depend on the processing

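Over 37 differences of GBP genes, 14 of them called, 709 values were compared under the alternatives, with the 2-fold threshold left out. Of these, 657 stayed on the same side of the threshold with the same sign, 10 lost a call, 20 gained one and 22 changed sign. At 2-fold Gbp9 was no longer called in effector against naive adults, nor were Gbp4, Gbp7 and Gbp10 in neonates against effector adults. The calls of Gbp3 and Gbp5 in effector against naive adults, and of Gbp8 in neonates against naive adults, held under every alternative run. Called GBP genes numbered 4 with array weights in females (main 2). In males (main 1) they numbered 2 after centring, 2 with only the arrays compared, 0 without the 3 least correlated arrays, and 0 to 1 when single arrays were left out. Neonates against naive adults gave 2 at percentile 60, after quantile normalization and with a trended prior, and 1 to 3 without single arrays (main 1). Neonates against effector adults gave 4 at 2-fold and 4 to 7 without single arrays (main 7).

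Signs turned only for differences that were not called. Effector minus naive, Gbp2b was 0.047 after centring, 0.063 after quantile normalization and 0.16 without the 3 arrays, Gbp4 -0.082 after quantile normalization, and Gbp7 -0.023 after it and -0.13 without the 3 arrays. In males Gbp10 was -0.16 and -0.25 under the same settings, and Gbp3 in neonates minus naive adults was -0.0099 without the 3 arrays. Leaving out single arrays gave -0.22 to 0.015 for Gbp2b effector minus naive, -0.068 to 0.27 for Gbp4 effector minus naive, -0.031 to 0.26 for Gbp10 effector minus naive males, -0.36 to 0.044 for Gbp9 female response minus male response, -0.20 to 0.27 for Gbp2b neonate minus naive, -0.52 to 0.53 for Gbp3 neonate minus naive, -0.65 to 0.071 for Gbp5 neonate minus naive and -0.11 to 0.36 for Gbp2b neonate minus effector. The cause was not tested.

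Replicate numbers did not pair the arrays, since 0 of 30 same-numbered pairs correlated above 0.1 and in 7 of the 30 the array correlated best with its own number. With the replicate block 2 GBP genes were called in neonates against naive adults, Gbp7 and Gbp8.

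Over all genes, 2-fold gave 1555 calls (main 5628), 1226 in females, 1981 in males, 632 and 1081 for neonates against naive and effector adults. Array weights gave 3745 in females (main 2276), 705 and 2068 for these neonatal comparisons (main 1652 and 3346), and 19 and 11 between sexes (main 34 and 5). With only the arrays compared 676 were called against naive adults in neonates, and 8 between sexes in either state. Single arrays left out gave as few as 1361 in females, 2603 in males (main 4048), 1027 and 2067 in neonates, 16 to 84 between naive sexes and up to 7 for the difference of responses (main 0). Males gave 2224 without the 3 arrays. Gbp2b was not tested at percentile 60.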
